A study of Homo sapiens with 52 samples.

Results

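Genes that passed through a transient state early in the retinoic acid course of H1 cells were sought by setting days 2, 3 and 4 against both ends of the course. H1 is a line of human embryonic stem cells. It was grown in mTeSR medium on Matrigel and sampled before treatment (day 0, undifferentiated) and daily in 5 µM retinoic acid through day 10. Days 2, 3 and 4 gave 6 samples, day 0 gave 2, and days 9 and 10 gave 4, so the comparison used 12 of the 26 samples of the series and 24 of its 52 arrays. The other 14 samples were H1 on day 1 and days 5 to 8 in retinoic acid, and the undifferentiated lines H9 and HUES8 in mTeSR without it. Each of the 13 groups held 2 samples that the labels call biological replicates. Nothing in the labels says that replicates were separate differentiations, so the p-values measure the spread between these samples. The course had no untreated H1 culture after day 0, so retinoic acid and time in culture cannot be told apart. All H1 samples came from 1 line. A gene was counted when days 2 to 4 differed in the same direction from day 0 and from days 9 and 10, with an adjusted p under 0.05 in a joint test. The joint test took the larger of the 2 p-values of a gene and was then adjusted over all genes. Of 12202 genes tested, 88 were transiently higher and 27 transiently lower.

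Retinoic acid is a derivative of vitamin A that enters the nucleus and binds receptors of the RAR and RXR families, which sit on DNA as pairs and switch from repressing to activating nearby genes. In embryos it patterns the body axis, and in stem cell cultures it is used to drive cells out of the pluripotent state. Known early targets include the receptor gene RARB, the retinoic acid-degrading enzyme CYP26A1 and HOX genes of the hindbrain.

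Each sample was hybridised to both arrays of the Affymetrix HG-U133 pair, called here the A chip and the B chip. The signal is an intensity in arbitrary units that is comparable for a probe set between arrays of a chip, not between probe sets. The 12 samples had 45.0% to 54.2% of probe sets called present on the A chip and 33.7% to 40.1% on the B chip. The ratio of 3' to 5' ACTB signal, a measure of RNA integrity, ran on the A chip from 1.27 to 1.30 on day 0, from 1.34 to 1.65 on days 2 to 4 and from 1.45 to 1.89 on days 9 and 10. With this ratio as a covariate, 86 genes were transiently higher and 23 lower, of which 75 and 19 were among the 88 and 27. CA4 (adjusted p = 0.0745), NPY1R (0.0997), SEMA3A (0.0567) and TRIB2 (0.123) were then not called, nor was NANOG against day 0 (0.116). Of 8 stem cell markers, 6 were tested, and their summed signal was 64257 to 66941 on day 0, 57632 to 100216 on days 2 to 4 and 12724 to 19733 on days 9 and 10. The brightest probe sets decide such a sum. Of 25 tested genes of the core pluripotency list, 2 were higher and 8 lower on days 2 to 4 than on day 0, with a median of -0.54 (log2), and 23 were higher than on days 9 and 10. In these bulk samples, fewer cells of a type and less RNA per cell cannot be told apart.

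Against day 0 alone, 638 genes were higher on days 2 to 4 (5.23% of those tested) and 385 lower (3.16%). Against days 9 and 10 alone, 2087 were higher (17.1%) and 2181 lower (17.9%). With arrays centred on control probe sets, the second split was 1614 higher and 2669 lower, and the median gene then stood at -0.12 (log2) against day 0 and -0.16 against days 9 and 10. The 88 genes higher than both ends were 0.721% of the genes tested, and the 27 lower genes were 0.221%. In 81 of the 88, the 6 samples of days 2 to 4 all lay above the 6 samples of both ends, which held for 2.17% of all genes. In 24 of the 27 they all lay below, against 1.8% of all genes. Since the calls used these samples, both shares describe the members and test nothing. The smaller of the 2 changes was at least 2-fold in 62 higher and 20 lower genes. The median change of the higher genes was 1.80 (log2) against day 0 and 1.60 against days 9 and 10, and that of the lower genes was -1.57 and -1.56, while the medians of all genes tested were -0.02 and -0.03.

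**Figure D1:**
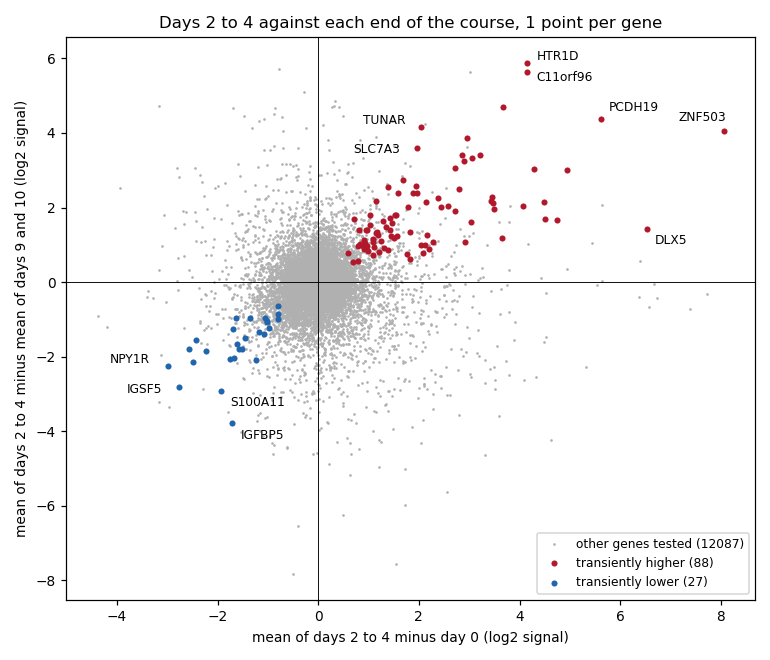
Change of every gene tested on days 2 to 4 against day 0 (horizontal axis) and against days 9 and 10 (vertical axis), both in log2 signal, with 1 point per gene. The 88 transiently higher genes lie in the upper right and the 27 lower genes in the lower left, and most other genes lie around the origin or near a single axis.

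Day 0 rested on 2 samples and decided many of the calls. Without day 0 replicate 1, 43 genes were transiently higher and 7 lower. Without day 0 replicate 2, the counts were 47 and 5. Of the 88 higher genes, 31 were called without either day 0 sample, and 27 were called in each of the 12 fits that left out 1 of the samples compared. Of the 27 lower genes, 3 passed all 12 such fits, namely S100A11, PHLDB2 and AMOTL1. The genes nearest the threshold were PELI2 (adjusted p = 0.0463) and PLEKHB1 (0.0488) inside it on the higher side, and APBA1 (0.0501) and ZNF296 (0.0561) outside it. On the lower side PDK1 and NNAT were inside (both 0.0488), and PRIMPOL (0.0536) and SAMD4A (0.0574) outside. ZNF296 differed by 2.95 and 3.63 from the ends, so genes left out by the threshold can have large changes.

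PCDH19 and ZNF503 were among the 4 genes with the largest smaller change of the 2, the others being C11orf96 and HTR1D. PCDH19 encodes a protocadherin, a cell surface adhesion molecule. Its signal was 21.7 and 54.4 on day 0, 624 to 2832 with a median of 2189 on days 2 to 4, and 33.3, 34.8, 132.6 and 282 on days 9 and 10. All 6 middle samples called it present, and none of the 6 samples of the ends did. Where a gene is called present on no array of its lower side, only a bound can be given, with each array of that side set to the lowest signal called present on it, or to the gene's own signal where that was higher. For PCDH19 the bound was at least 21.9-fold against day 0 and at least 16.7-fold against days 9 and 10 (adjusted p of the joint test 5.79e-07, limma). ZNF503 encodes a zinc finger protein known as a transcriptional repressor. Its signal was 14.7 and 157.4 on day 0, where it was not called present, 7051 to 17859 with a median of 13641 on days 2 to 4, and 488, 719, 934 and 1130 on days 9 and 10. It rose at least 113-fold from day 0 and then stood 16.5-fold above days 9 and 10 (adjusted p = 4.07e-05, limma).

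The 250 bases before the starts of these 2 genes are shown as those of the strongest rises called present in all 6 middle samples that have a window in the table, which holds none for C11orf96, in the orientation of the gene and from the RefSeq table of GRCh38.p14. The hexamer AGGTCA, the textbook core of sites bound by retinoic acid receptors, and its variant AGTTCA were searched on both strands, as AGGTCA or TGACCT and as AGTTCA or TGAACT. Neither is present in these 2 windows, at chrX:100410274-100410523 (minus strand) and chr10:75401917-75402166 (minus strand), so they hold no capitals.
PCDH19: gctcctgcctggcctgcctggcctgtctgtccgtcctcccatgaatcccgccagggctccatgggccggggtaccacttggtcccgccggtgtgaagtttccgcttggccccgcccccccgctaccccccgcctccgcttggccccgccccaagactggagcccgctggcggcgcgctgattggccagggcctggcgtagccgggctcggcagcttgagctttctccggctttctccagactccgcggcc
ZNF503: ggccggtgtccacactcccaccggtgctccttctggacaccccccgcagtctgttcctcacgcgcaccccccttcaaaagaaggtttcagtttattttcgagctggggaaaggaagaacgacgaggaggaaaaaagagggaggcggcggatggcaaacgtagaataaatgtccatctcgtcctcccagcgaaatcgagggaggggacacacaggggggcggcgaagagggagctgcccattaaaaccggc

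Of the 88 higher genes, 67 had a window of this length in the table, and 8 of the 67 (11.9%) held AGGTCA or its reverse, against 8.22% of 9959 windows of genes tested and 12.1% of all 27305. AGTTCA or its reverse was in 1 of 67 (1.49%), against 5.91% of the genes tested and 8.91% of all. None of the 20 windows found for the 27 lower genes held either hexamer. Among the leading rises, SERPINB9 held the hexamer at a pair of places (chr6:2903435-2903460 and chr6:2903412-2903437, minus strand) and NLRP7 at a single place (chr19:54947618-54947643, minus strand). They are shown with 10 bases on each side and the hexamer in capitals.
SERPINB9, farther from the start: ggggggacccTGACCTgaccctgctc
SERPINB9, nearer to the start: ctcccagctcTGACCTcggccaccac
NLRP7: ggtgagcctgAGGTCAgtggttggga
A match is only these letters in this window, and no share above was tested.

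HAS2, SERPINB9 and DEPTOR were expressed on day 0 and rose from there. HAS2, the synthase of the matrix polysaccharide hyaluronan, had a signal of 1010 and 879 on day 0, 6935 to 10137 with a median of 9408 on days 2 to 4, and 391, 393, 1701 and 1838 on days 9 and 10. The groups did not overlap, and the rise was 9.32-fold from day 0 and 10.54-fold over the late days (log2 3.22 ± 0.45 and 3.40 ± 0.36, SE, adjusted p = 0.000385, limma). The late samples split by replicate number, with replicate 1 at 1838 and 1701 and replicate 2 at 393 and 391. SERPINB9, an inhibitor of the protease granzyme B, read 1540 and 1525 on day 0, 8165 to 18334 on days 2 to 4 and 1036 to 1735 on days 9 and 10, which was 8.31-fold and 10.1-fold higher (adjusted p = 1.29e-05). DEPTOR, an inhibitor of the growth kinase mTOR, read 168.4 and 145.1 on day 0, 496 to 2194 with a median of 1367 on days 2 to 4, and 79.9 to 196 on days 9 and 10. It was 7.44-fold and 9.43-fold higher (adjusted p = 4.64e-06), with its highest level already on day 1.

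LAMP5, SMIM10L2A and NLRP7 were called present in all 6 middle samples and in at most 1 sample of the 2 ends. LAMP5, a membrane protein of the LAMP family, read 19.6 and 27.9 on day 0, 623 to 995 on days 2 to 4 and 59.3 to 126 on days 9 and 10, at least 20.1-fold and at least 8.10-fold higher (adjusted p = 5.79e-07). SMIM10L2A, a small protein without an assigned role here, rose at least 19.4-fold from day 0 and stood 8.19-fold above the late days (adjusted p = 5.79e-07). NLRP7, an NLR family protein known from inherited hydatidiform mole, read 440 and 544 on day 0 without a present call, 2470 to 6187 on days 2 to 4 and 184 to 742 on days 9 and 10, at least 7.28-fold and at least 10.7-fold higher (adjusted p = 0.000805). Outside the ends it was called present in 3 of the 4 samples of H9 and HUES8, and it read 3813 and 3629 on day 1. These genes, with PCDH19, ZNF503, HAS2, SERPINB9 and DEPTOR, were called in all 12 fits without 1 sample.

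The remaining 4 of the 12 leading rises depended on a day 0 sample. C11orf96 read 16.6 and 130 on day 0, 564 to 1297 on days 2 to 4 and 7.89 to 50.9 on days 9 and 10, at least 8.04-fold and at least 13.5-fold higher (adjusted p = 0.00250), but without day 0 replicate 1 the adjusted p was 0.253. SLC15A3, a peptide and histidine transporter of endosomes and lysosomes, read 194 and 14.3 on day 0, 461 to 909 on days 2 to 4 and 14.8 to 94.2 late, at least 9.09-fold and at least 17.4-fold higher (adjusted p = 0.0118), and had an adjusted p of 0.831 without day 0 replicate 2. FGF4, a growth factor ligand made by pluripotent cells, read 219 and 32.8 on day 0, 340 to 1021 on days 2 to 4 and 15.0 to 190 late, 7.71-fold and at least 11.2-fold higher (adjusted p = 0.0138). Its adjusted p without day 0 replicate 2 was 0.834. CA4, a membrane carbonic anhydrase, was 6.599-fold and 8.41-fold higher (adjusted p = 0.0218), with a day 0 signal of 181 and 86.3 against 631 to 1288 on days 2 to 4. It was not called without either day 0 sample in turn (adjusted p = 0.106 and 0.571), nor without day 2 replicate 1 (0.0600), day 3 replicate 2 (0.0550) or day 4 replicate 2 (0.0536). In all 4 genes the samples of days 2 to 4 lay above those of both ends.

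**Figure D2:**
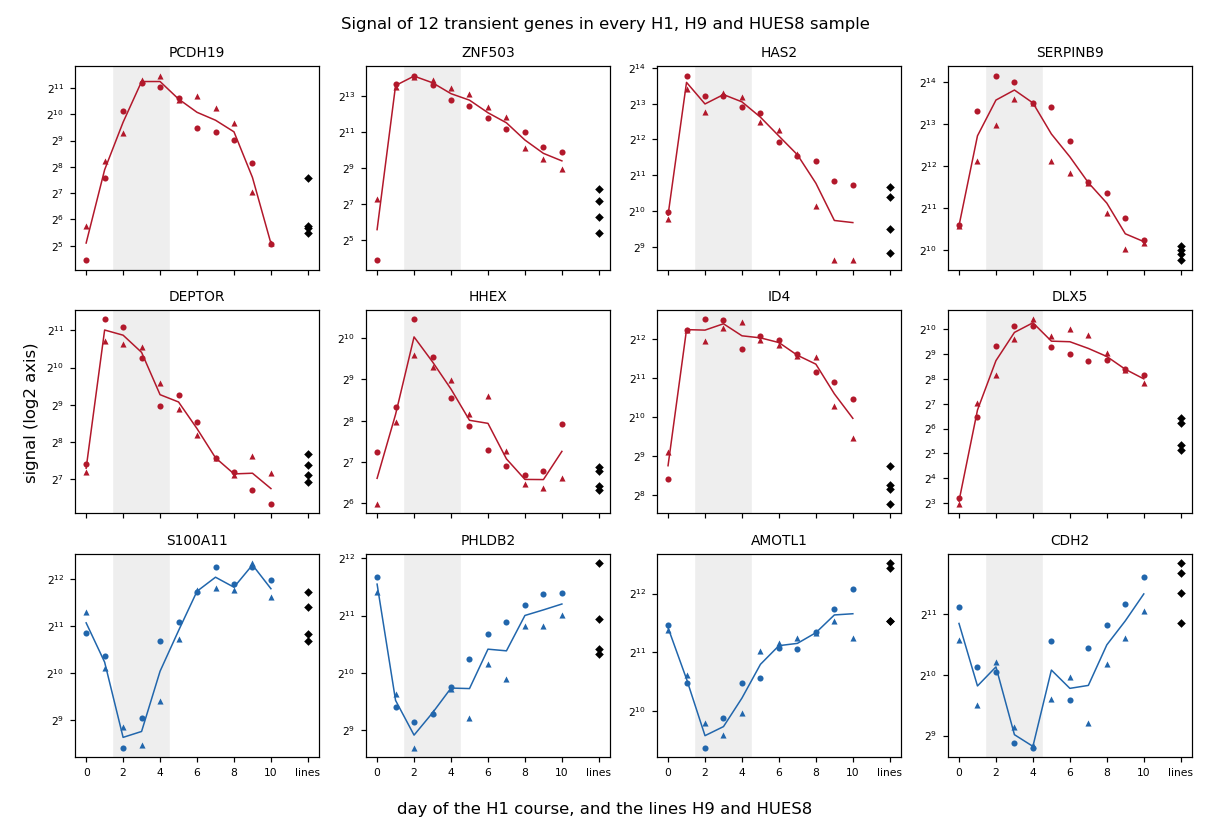
Signal (log2 axis) of 12 transient genes, 8 higher and 4 lower, in every H1 sample by day and in the 4 samples of H9 and HUES8. Circles and triangles are replicates 1 and 2, the line joins the mean log2 signal of each day, diamonds are the lines and the grey band marks days 2 to 4, where the points lie above or below both ends, except that the lowest DLX5 sample lies within the late range.

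By role, the 88 higher genes included 11 transcription regulators, 11 signals, receptors or signalling regulators, 8 genes of adhesion, matrix or cytoskeleton, 6 membrane transporters, 15 metabolic or processing enzymes and 6 genes of RNA modification, decay or translation. The other 31 were given no role. Roles were assigned after the genes were called and serve only to order the description, and genes named under them beyond the rule for named genes were chosen after their values were seen.

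Among the transcription regulators, 8 of 11 ended above their starting level on days 9 and 10, 1 ended below and 2 were not called. Of all 88 higher genes, 21 ended above and 8 below, and of all genes tested 15.4% and 13.5%. The comparison of the late days with day 0 is the difference of the 2 that chose the genes. Roles were also given after the calls, so these counts only describe the members and test nothing. ID4 and ID1 are inhibitors of basic helix-loop-helix factors and known targets of BMP signalling. ID4 read 336 and 549 on day 0, 3437 to 5865 with a median of 5288 on days 2 to 4, and 708 to 1924 on days 9 and 10, a rise of 11.3-fold followed by a level 3.90-fold lower (adjusted p = 1.29e-05). ID1 went from 7274 and 5365 on day 0 to 15777 to 25626 on days 2 to 4, and stood at 11138 to 18025 late, so its groups overlapped. Its joint test gave an adjusted p of 0.0454, which 9 of the 12 fits without 1 sample did not keep (up to 0.302). DLX5, a homeobox factor of the neural plate border and placodes, read 9.24 and 7.78 on day 0, 281 to 1340 on days 2 to 4 and 227 to 340 late. It rose at least 21.8-fold, and the middle samples were on average 2.68-fold above the late ones, with the lowest inside the late range (adjusted p = 0.0049).

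HHEX, a homeobox factor of anterior endoderm and blood vessel precursors, read 150 and 63.1 on day 0, 373 to 1400 with a median of 688 on days 2 to 4, and 83.0 to 240 on days 9 and 10. It was 6.95-fold and 5.61-fold higher (adjusted p = 0.000385), and the groups did not overlap. GRHL3, a grainyhead factor of surface ectoderm, was called present in all 6 middle samples and in none of the ends, with a signal of 161 and 141, then 815 to 2242, then 262 to 644. It was at least 11.2-fold and at least 4.32-fold higher (adjusted p = 0.00169). TFAP2C, an AP-2 factor of ectoderm and trophoblast, rose 3.38-fold from 512 and 529 to between 1212 and 2269, and was 1.69-fold lower late at 978 to 1121 (adjusted p = 0.00662). KLF4, a zinc finger factor known for reprogramming, rose 4.89-fold from 102 and 101 to between 397 and 672, and was 2.10-fold lower late (adjusted p = 0.0106). Without day 9 replicate 1 or day 10 replicate 1, its adjusted p was 0.0749 and 0.0613.

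SOX3, a SoxB1 factor of neural precursors, read 215 and 368 on day 0, 630 to 1501 on days 2 to 4 and 102 to 204 on days 9 and 10. It was 3.20-fold and 6.71-fold higher (adjusted p = 0.0251) and ended below day 0 (log2 -1.07, adjusted p = 0.0461, limma). Its call was lost in 5 of the 12 fits without 1 sample, including that without day 0 replicate 1 (adjusted p = 0.768). The remaining factors, NR6A1 and TOB1, read 2968 and 2357, then 5906 to 8246, then 1695 to 3781 for NR6A1, an orphan nuclear receptor, and 1434 and 1441, then 4595 to 7522, then 2315 to 2992 for TOB1, an antiproliferative protein. Both separated the middle days from both ends.

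The signalling genes held ligands, receptors and feedback inhibitors. SPRED2, an inhibitor of the RAS and ERK pathway, read 344 and 388 on day 0, 737 to 1829 on days 2 to 4 and 229 to 377 on days 9 and 10, 2.88-fold and 3.49-fold higher (adjusted p = 0.000472). AXIN2, a scaffold of the beta-catenin destruction complex and a target of WNT signalling, read 884 and 1180, then 1124 to 3482, then 851 to 1095. It was 2.29-fold and 2.40-fold higher (adjusted p = 0.0049), but the lowest middle sample, from day 4, was inside the day 0 range, and without day 0 replicate 1 the adjusted p was 0.262. FGF13, an intracellular FGF homologous factor that modulates sodium channels, was 1.75-fold and 2.61-fold higher (adjusted p = 0.0146), and was not called without day 0 replicate 1 (0.0818) or 2 (0.428). HTR1D, a serotonin receptor, was called present in only 3 of 6 middle samples, at a signal of 162 to 492 against 10.8 and 31.1 on day 0 and 4.50 to 7.51 late, at least 8.72-fold and at least 11.3-fold higher (adjusted p = 0.00428). NRP1, a receptor of semaphorins and VEGF, was likewise called present in 3 of 6 middle samples and in none of the ends by its chosen probe set. Another NRP1 probe set, called present on 20 arrays, stood 2.18 (log2) above day 0 but only 0.39 above the late days. NMU, the neuropeptide neuromedin U, read 2045 and 1491, then 4061 to 10589, then 838 to 3791, and ERRFI1, a feedback inhibitor of EGF receptors, 4376 and 5898, then 26298 to 49139, then 17719 to 19098. ERRFI1 thus came only part of the way back.

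The median of the smaller change was 1.07 (log2) over the 15 enzymes and 2.00 over the 6 transporters, against 1.34 over all 88 genes. SC5D, a sterol desaturase of cholesterol synthesis, read 2142 and 2349 on day 0, 2523 to 6075 on days 2 to 4 and 1391 to 1833 late, 1.96-fold and 2.62-fold higher (adjusted p = 0.00344, and 0.131 without day 0 replicate 1). HSD17B4, a peroxisomal enzyme of fatty acid breakdown, read 3732 and 3496, then 4225 to 10613, then 1888 to 2306. SLC7A3, a carrier of cationic amino acids, read 9837 and 12866, then 33913 to 56028, then 2199 to 6218, and ended below day 0. MTHFD1, an enzyme of one-carbon folate metabolism, and CYP2S1, a cytochrome P450, also ended below day 0. CD24, a surface glycoprotein of stem and epithelial cells, was the only 1 of 25 tested core pluripotency list members called. It read 6808 and 9492 on day 0, 14493 to 18269 on days 2 to 4 and 7121 to 10984 late, 1.95-fold and 1.94-fold higher (adjusted p = 0.00344, and 0.253 without day 0 replicate 1).

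Gene lists were read by their counts of transient genes beside the background of 0.721% and 0.221%. For single ends, the background was 5.23% higher and 3.16% lower than day 0, and 17.1% higher and 17.9% lower than late. Of 25 tested genes of BMP signalling, 3 were transiently higher (ID4, DLX5 and ID1) and none lower. Against day 0, 14 of the 25 were higher and 0 lower, with a median of 1.74 (log2), and against the late days 3 were higher and 5 lower, with a median of 0.02. Of 23 tested genes of FGF and ERK feedback, 3 were transiently higher (FGF4, SPRED2 and FGF13), 5 were higher and 6 lower than on day 0, and 15 were higher and 1 lower than late. In the surface ectoderm list, GRHL3 and TFAP2C of 22 were transiently higher. On days 2 to 4, 9 of the 22 were higher and 0 lower than day 0, and 5 were higher and 13 lower than late. The neural crest and plate border list had DLX5 of 17, with 8 higher and 1 lower than day 0, and 5 higher and 4 lower than late. The lists of WNT targets (AXIN2 of 21), definitive endoderm (HHEX of 11), neural progenitors (SOX3 higher and CDH2 lower, of 15), extracellular matrix (HAS2 of 24), cholesterol synthesis (SC5D of 16) and immediate early genes (KLF4 of 12) each gave 1 rise. No member was called in either direction in 23 of the 36 lists, among them those of 17 retinoid genes, 10 HOX genes, 25 mitosis genes, 24 DNA replication genes, 18 ribosomal genes and 22 respiratory chain genes. Of the 88 higher genes, 15 were in any of the 36 lists, and of the 27 lower genes 2 were.

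Beside the ectoderm and BMP genes, the summed signal of 3 tested markers of trophoblast or amnion (GATA3, KRT7 and TFAP2A, of 5 listed) was 120 to 135 on day 0, 1462 to 14760 on days 2 to 4 and 6900 to 9057 on days 9 and 10, and none of the 3 was transient. Its part in the result was not tested. Of 4 endoderm markers tested, CXCR4, FOXA2 and SOX17 were called present in no middle sample, and GATA6 in at least 1. Of 5 neuronal markers, DCX, ELAVL4, GAP43 and STMN2 were called present in none, and TUBB3 in at least 1. Of 2 mesoderm markers tested, TBXT was called present in none and TBX6 in at least 1. All 3 tested markers of neural crest were called present in at least 1 middle sample, against 1 of the 3 on day 0 and 1 late. The window has 6 samples for such a call, against 2 on day 0 and 4 late. The summed signal of these 3 markers was 501 to 673 on day 0, 532 to 906 on days 2 to 4 and 556 to 1709 late, so the ranges overlapped. All 3 tested markers of neural progenitors, and all 3 of endothelium, were also called present in at least 1 middle sample. Their summed signals were nonetheless lower than on day 0. For neural progenitors the sum was 1724 to 1837 on day 0, 1228 to 1678 on days 2 to 4 and 654 to 1016 late. For endothelium it was 1126 to 1306, then 476 to 819, then 338 to 540. None of these markers was called transient.

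Of 3 well known retinoic acid genes, none was called transient. CYP26A1, the enzyme that clears retinoic acid, read 1853 and 1162 on day 0, 25169 to 39842 on days 2 to 4 and 23755 to 37009 on days 9 and 10. It rose 21.5-fold, and the middle and late days differed by 0.12 ± 0.14 (log2, SE, adjusted p = 0.549, limma). RARB, a retinoic acid receptor, read 27.4 and 41.0, then 1206 to 1684, then 539 to 931. It was 2.07-fold lower late (adjusted p = 0.0054 for that comparison), but its joint test missed the threshold (adjusted p = 0.0843). HOXB1, an early hindbrain HOX gene, rose at least 31.4-fold and read 1427 to 3660 on days 2 to 4 and 2803 to 5445 late. NANOG, SOX2 and DNMT3B, genes of the pluripotent state, mainly dropped after the window. NANOG was 2.50-fold lower than day 0 on days 2 to 4 (adjusted p = 0.0249) and 17.5-fold higher than late. DNMT3B, a DNA methyltransferase, read 10035 and 10320 on day 0, 10326 to 25266 on days 2 to 4 and 883 to 1871 late, 1.77-fold above day 0 (adjusted p = 0.0256) with a joint adjusted p of 0.108. The comparisons of NANOG and DNMT3B with day 0 were each lost without either day 0 sample in turn (adjusted p from 0.0981 to 0.283).

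The 27 lower genes included 7 of adhesion, matrix or cytoskeleton, 7 signals, receptors or signalling regulators, 3 genes of RNA binding or export, 2 transcription regulators and 2 enzymes, and 6 were given no role. S100A11, a calcium-binding protein of the cell cortex, read 1835 and 2496 on day 0, 338 to 1631 with a median of 494 on days 2 to 4, and 3112 to 5180 on days 9 and 10. It fell 3.81-fold and was 7.52-fold higher late (adjusted p = 0.000183), ending above day 0. PHLDB2, which tethers microtubules to the cortex at adhesions, read 3285 and 2739, then 412 to 862, then 1813 to 2692, 4.72-fold lower than day 0 and 3.58-fold lower than late (adjusted p = 0.000157). AMOTL1, an angiomotin of tight junctions that binds YAP, read 2829 and 2651, then 666 to 1434, then 2415 to 4317, 2.97-fold and 3.47-fold lower (adjusted p = 0.000126). In all 3 the samples of days 2 to 4 lay below every sample of the ends.

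IGSF5, a junctional adhesion molecule, was the only transient gene called present in every sample of both ends and in no sample of days 2 to 4. It read 468 and 500 on day 0, 26.5 to 228 on days 2 to 4 and 283, 438, 622 and 831 late, at least 5.36-fold and at least 5.58-fold lower (adjusted p = 0.0158). CDH2, the neural and mesenchymal cadherin, read 2234 and 1518, then 445 to 1184 with a median of 519, then 1564 to 3136, 2.88-fold and 3.45-fold lower (adjusted p = 0.0158). FAT3, an atypical cadherin, was 3.39-fold and 4.15-fold lower (adjusted p = 0.00255), and ADAMTS1, a matrix protease, 3.20-fold and 4.12-fold lower (adjusted p = 0.0138). All 4 lost their call without a day 0 sample. Without day 0 replicate 1 the adjusted p was 0.236 for IGSF5, 0.528 for CDH2, 0.111 for FAT3 and 0.139 for ADAMTS1. Without replicate 2 it was 0.242 for IGSF5, 0.0794 for CDH2 and 0.312 for ADAMTS1.

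Receptors and secreted signals fell as well. NPY1R, a neuropeptide Y receptor, read 606 and 359 on day 0, 43.7 to 74.5 on days 2 to 4 and 163 to 434 late, 7.92-fold and 4.72-fold lower (adjusted p = 0.0158). SEMA3A, a secreted semaphorin that repels axons, read 767 and 964, then 75.5 to 201, then 324 to 768, 5.92-fold and 3.50-fold lower (adjusted p = 0.00823). IL13RA1, a subunit of the interleukin-13 receptor, was 3.07-fold and 3.14-fold lower (adjusted p = 0.00823). TRIB2, a pseudokinase, was 5.41-fold and 2.94-fold lower (adjusted p = 0.0300), and MACC1, a regulator of MET expression, 5.61-fold and 4.38-fold lower (adjusted p = 0.00428). PDK1, the kinase that inhibits pyruvate dehydrogenase, read 6374 and 8549, then 1691 to 3366, then 3309 to 6767, 3.10-fold and 1.96-fold lower (adjusted p = 0.0488), with the highest middle sample above the lowest late one. PDK1 was the only 1 of 24 tested members of the glycolysis and hypoxia list called. Without day 0 replicate 1 the adjusted p was 0.346 for NPY1R, 0.238 for IL13RA1, 0.196 for TRIB2, 0.114 for MACC1 and 0.111 for PDK1, and without replicate 2 it was 0.0818, 0.0861, 0.0729, 0.0818 and 0.198 in that order and 0.105 for SEMA3A. NPY1R, SEMA3A and TRIB2 also lost their call without day 9 replicate 1 (0.104, 0.0699 and 0.233) or day 10 replicate 1 (0.0915, 0.0629 and 0.216). The highest adjusted p without any of the 12 samples was 0.381 for PDK1, without day 9 replicate 2.

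Beside the lower genes, the summed signal of 5 fibroblast markers was 5159 to 7633 on day 0, 3510 to 4592 on days 2 to 4 and 19007 to 26985 on days 9 and 10, so it too was lowest in the window. None of those 5 markers was called transient, and their part in the result was not tested.

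**Figure D3:**
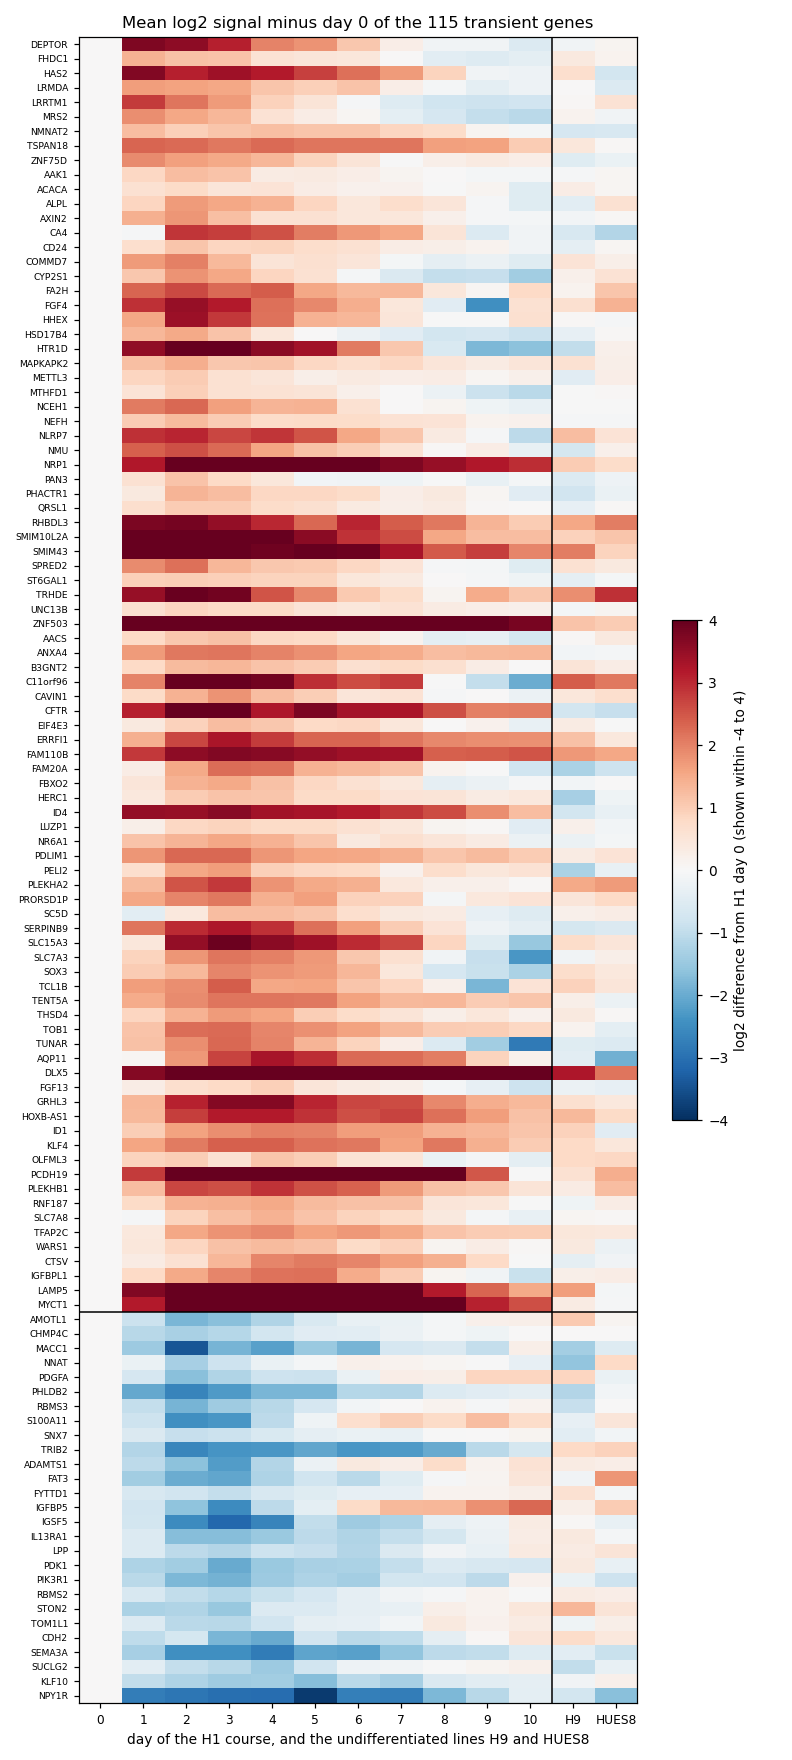
Mean log2 signal minus H1 day 0 of the 88 transiently higher genes (above the black line) and the 27 lower genes (below it), in the 11 days of the course and in H9 and HUES8, with colours held within -4 to 4. Within each block genes are ordered by the day of their most extreme mean, and the columns of days 9 and 10, H9 and HUES8 are mostly paler than those of days 2 to 4.

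Within the window the members differed in timing. Of the 88 higher genes, 32 had their highest mean on day 2, 29 on day 3 and 14 on day 4, while 9 peaked on day 1 (among them DEPTOR and HAS2) and 4 on day 5 (among them LAMP5). Of the 27 lower genes, 10 were lowest on day 2, 12 on day 3, 3 on day 4 and 2 on day 5. The same samples were also read day by day, which describes the members and is no further test of them. With each day set against both ends, 52 of the 88 were called on day 2, 47 on day 3 and 23 on day 4, against 0.475%, 0.393% and 0.229% of all genes, and 14 on each of the 3 days. Of the 27, 11, 15 and 3 were called, against 0.213%, 0.156% and 0.0246%, and 1 on each day. Comparing day 4 with day 2 directly, 3 of the 88 were higher on day 4 (1.81% of all genes were) and 7 were lower (0.328% of all genes). Of the lower genes, 2 were higher again on day 4. The 3 were DLX5, SC5D and CTSV, a lysosomal cathepsin. Among the 7, DEPTOR fell by 1.60 ± 0.34 (log2, SE, adjusted p = 0.0132, limma), SPRED2 by 1.11 ± 0.26 (adjusted p = 0.0260) and AXIN2 by 1.15 ± 0.27 (adjusted p = 0.0205). S100A11 recovered by 1.41 ± 0.30 (adjusted p = 0.0137).

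The median higher gene was 1.26 (log2) above day 0 on day 1, 1.78 on day 2, 1.90 on day 3 and 1.68 on day 4. It then came down in daily steps to 1.40, 1.10, 0.74, 0.33 and 0.10 on days 5 to 9, and was at -0.02 on day 10. The median lower gene was at -0.94 on day 1, -1.64 on day 2, -1.69 on day 3 and -1.19 on day 4, then at -0.77, -0.42, -0.33, -0.08 and -0.01, and at 0.23 on day 10. In 64 of the 88 and 20 of the 27, day 1 had already passed 50% of the change that days 2 to 4 showed from day 0. The return to the late level had covered, for the median higher gene, 22.2% of the way on day 5, 53.8% on day 7 and 78.3% on day 8. For the median lower gene those shares were 38.2%, 70.3% and 86.7%. Values of days 0, 2 to 4, 9 and 10 in these courses come from the samples that chose the genes.

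**Figure D4:**
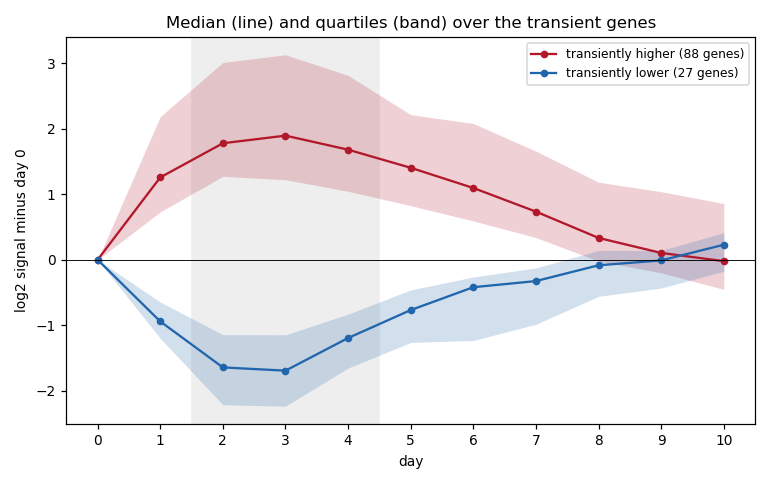
Median (line) and quartiles (band) over the 88 transiently higher and the 27 transiently lower genes of the log2 signal minus day 0, by day, with days 2 to 4 in grey. Both medians are furthest from day 0 on day 3 (1.90 and -1.69) and near it on days 9 and 10.

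The course did not always close where it began. Days 9 and 10 differed from day 0 in 15.4% of all genes upward and in 13.5% downward. As the difference of the 2 comparisons that chose the genes, this comparison describes the members and is no independent result. Of the 88 higher genes, 21 ended above day 0, 8 below it and 59 were not called either way. Those ending above included ZNF503, DLX5, ID4, KLF4, ERRFI1 and LAMP5, and those below SOX3, SLC7A3 and FGF13. Of the 27 lower genes, 3 ended above day 0 (S100A11, IGFBP5 and PDGFA), 0 below, and 24 were not called. IGFBP5, a binding protein of insulin-like growth factors, read 290 and 239 on day 0, 39.6 to 131 on days 2 to 4 and 614 to 2141 late. A gene not called here is not shown to have returned exactly.

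Detection calls come from the same arrays that chose the genes and only describe them. Of the 88 higher genes, 78 were called present in all 6 middle samples, 30 in neither day 0 sample and 19 in no sample of either end. No share over all genes is given for these counts. The filter of 2 present arrays can be met by the middle samples alone. PCDH19, C11orf96, SLC15A3, LAMP5 and GRHL3 were among the 10 called present in all 6 middle samples and no sample of the ends. Of the 27 lower genes, 15 were still called present in all 6 middle samples, and IGSF5 in none. As a description of the same middle samples, which chose the genes, 77 of the 88 had all 6 above the 4 samples of H9 and HUES8 (6.43% of all genes did), and 23 of the 27 had all 6 below (7.38%).

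The 14 samples outside the comparison were then set against each other in a fit of their own. They did not enter the 2 differences that called a gene, but they were not fully apart from the choice, since they shared in the estimate of the spread, the detection filter and the choice of probe set. A fit on the 12 samples alone called 95 higher and 26 lower genes, of which 75 and 20 were among the 88 and 27. Day 1 was set against the mean of H9 and HUES8, sides which also differ in cell line. Over all genes 2.47% were higher on day 1 and 2.75% lower. Of the 88 transiently higher genes, 47 were called higher and 1, SC5D, lower, and 83 were above 0 (50.8% of all genes were), with a median of 1.08 (log2) against 0.01 for all genes. Of the 27 lower genes, 16 were called lower and 0 higher, and 25 were below 0, with a median of -0.96. ZNF503 differed by 6.90 ± 0.50 (SE, adjusted p = 1.48e-06, limma), ID4 by 4.03 ± 0.19 (5.41e-08), HAS2 by 3.75 ± 0.29 (2.99e-06) and DEPTOR by 3.74 ± 0.25 (2.17e-06), while C11orf96, SLC15A3, TFAP2C and CA4 were not called (adjusted p from 0.552 to 0.997). CYP26A1 (3.08), RARB (4.09), HOXB1 (3.05) and DNMT3B (1.07), not called transient, were called higher here too, while NANOG and SOX2 were not. A rise by day 1 is thus not particular to the transient genes. Leaving out 1 sample of day 1, H9 or HUES8 lowered the calls over all genes tested, so the drops below are not particular to the members. Without day 1 replicate 1, 27 of the 88 and 5 of the 27 were called, and without replicate 2, 34 and 8. Without H9 replicate 1 or HUES8 replicate 1, 9 and 6 of the 27 were called.

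The way back was tested with days 5 and 6 against days 7 and 8. Over all genes 0.352% were higher on days 5 and 6 and 0.107% lower. Of the 88, 5 were called higher (HAS2, DEPTOR, SOX3, IGFBPL1 and OLFML3), and 87 were above 0 (50.2% of all genes were), with a median of 0.55 (log2) against 0.00 for all genes. Of the 27, 0 were called, and 27 were below 0, with a median of -0.44. DEPTOR was 1.36 higher on days 5 and 6 (adjusted p = 0.0115) and HAS2 1.19 higher (adjusted p = 0.0406). NANOG (1.89), DNMT3B (1.38) and SOX2 (1.26), which were lower late but not called transient, were called higher here too. RARB, also lower late, was not (0.38). A fall between these days is thus not particular to the transient genes, which were chosen as higher than days 9 and 10. With a replicate block 15 of the 88 and 3 of the 27 were called, and 2 of the 88 with arrays centred on control probe sets or with no detection filter. The calls also depended on single samples, over all genes tested as well as among the members. Over the 8 fits without 1 sample of days 5 to 8, between 0 and 11 of the 88 were called, with 0 without day 8 replicate 2, 2 without day 5 replicate 2, day 6 replicate 2 or day 7 replicate 1, and 11 without day 7 replicate 2. Of the 27, 1 was called without day 5 replicate 1, day 7 replicate 2 or day 8 replicate 1. The genes lie on shared arrays and are not independent of each other, so the counts above 0 are descriptions.

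**Figure D5:**
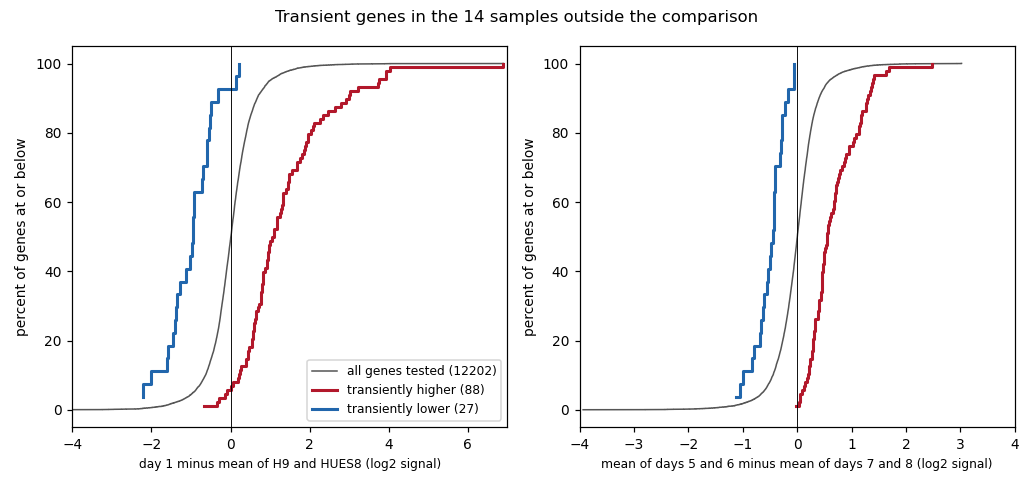
Cumulative percent of genes by log2 difference between day 1 and the mean of H9 and HUES8 (left) and between days 5 and 6 and days 7 and 8 (right), in the 14 samples outside the 2 differences that called the genes. The curve of the 88 transiently higher genes lies to the right of that of all 12202 genes (medians 1.08 and 0.55), and the curve of the 27 lower genes to the left (medians -0.96 and -0.44).

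Many genes had further probe sets on the arrays, which the choice of genes did not use, although they were hybridised to the same samples. For 43 of the 88 higher genes another probe set was called present on at least 2 arrays, 67 in all, and 63 of these were above both ends. Such counts go by the sign of the change alone, have no share over all genes beside them and only describe the members. Some of the 63 stood little above the late days, such as those of DEPTOR (log2 0.08) and KLF4 (0.15), and others far above, such as that of HAS2 (4.30). The 4 that were not belonged to SC5D, AAK1, QRSL1 and METTL3. Among the 27 lower genes, 18 had 34 such probe sets, of which 33 were below both ends, the exception being 1 of IGFBP5. With the mean over the probe sets of a gene in place of the chosen probe set, SC5D (adjusted p = 1), KLF4 (0.995), AMOTL1 (0.124) and PDK1 (0.116) were not called, and the changes were smaller.

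The transient genes were spread over the genome. No chromosome held more than 12 of them. There were 12 on chromosome 1 (1.02% of its 1180 genes tested), 9 on chromosome 17 (1.32% of 684), 8 on chromosome 14 (1.97% of 406) and 7 on the X chromosome (1.59% of 440). Of the 88 higher genes, 86 were protein coding, 1 was a long noncoding RNA (HOXB-AS1) and 1 a transcribed pseudogene (PRORSD1P), and all 27 lower genes were protein coding.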

How the data were processed

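RNA of 26 samples was hybridised to 1 A chip and 1 B chip each. Signal intensity was deposited by the authors as MAS5 values, per the submitters' processing notes, with a detection p-value per probe set, deposited by the authors in the same files; the software version and scan dates are not given in the sources used here. A further 52 columns of detection calls were not used. A probe set counted as present at a detection p under 0.05. Of the probe set rows, 34503 named 1 gene, 1597 several and 8828 none, by the platform annotation. Each gene was read from its brightest probe set naming that gene alone and present on at least 2 of 26 arrays. Probe sets with the suffix _x_at were used only where no other probe set of the gene passed. For the 168 probe sets on both chips, the B chip copies were left out. The log2 of the deposited intensity was fitted per chip with limma 3.58.1 (R 4.3.3), with 13 group means and an intensity trend. The joint p was the larger of the 2 contrasts' p-values where the signs agreed and 1 otherwise, two-sided, with Benjamini-Hochberg adjustment over both chips. The 14 samples outside the comparison were fitted apart. The scripts were tested on simulated data.

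Named genes were the 12 with the largest smaller change in each direction among called genes that did not overlap the ends and were detected on their higher side, up to 4 called members per gene list, genes present only in the window or only at the ends (up to 4 in each direction), and CYP26A1, RARB, HOXB1, DEPTOR, HAS2, DNMT3B, NANOG and SOX2. The members and lists were chosen with earlier results of these data known. Alternatives changed the normalization, centring, detection filter, pseudocount, probe set rule, variance trend, groups compared and samples. The number of arrays limits the precision.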

Additional observations from a re-analysis of the deposited data

Results flagged for a closer look

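In 6 groups of values for a named gene, 1 sample stood apart from the rest by Dixon's criterion, which chance meets in about 1 of 20 groups, and 88 groups were examined. On days 9 and 10, CA4 read 64.3 in day 9 replicate 2 against 111 to 114.5 in the others, CD24 read 10984 in day 9 replicate 1 against 7121 to 7606, and SC5D read 1391 in day 10 replicate 2 against 1753 to 1833. On days 2 to 4, ID1 read 15777 in day 2 replicate 2 against 22476 to 25626, GRHL3 read 815 in the same sample against 1660 to 2242, and NANOG read 878 in day 4 replicate 1 against 2074 to 3171.

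In 12 transient genes day 4 differed from day 2 by limma, with 2 samples a day. Among the higher genes the difference (log2, day 4 minus day 2) was -1.60 for DEPTOR (adjusted p = 0.0132), -1.51 for COMMD7 (0.0135), -1.15 for AXIN2 (0.0205), -1.11 for SPRED2 (0.0260), -1.06 for HSD17B4 (0.00372), -0.94 for MRS2 (0.0427) and -0.90 for AAK1 (0.0287). It was 1.52 for DLX5 (adjusted p = 0.0492), 1.34 for CTSV (0.0103) and 0.81 for SC5D (0.0401). Among the lower genes it was 1.41 for S100A11 (adjusted p = 0.0137) and 1.07 for NNAT (0.0165).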

How the results depend on the processing

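The counts of 88 transiently higher and 27 lower genes stayed within 1.5 times under quantile normalization (94 and 29), centring on control probe sets (75 and 30), no detection filter (84 and 24), a pseudocount of 32 (104 and 29), the mean of a gene's probe sets (96 and 25) and a fit on the 12 samples alone (95 and 26). With H9 and HUES8 joined to day 0 they were 198 and 132. With day 9 as the late end they were 60 and 17, and with 1 joint p per gene, the largest of the 6 tests of days 2, 3 and 4 against both ends, 13 and 0, where separate adjustment of each day gave 14 and 1. With a replicate block they were 143 and 54. Of the genes tested, 5.21% were called for day 1 against the lines and 0.459% for days 5 and 6 against days 7 and 8, and with a replicate block these shares were 7.95% and 1.32%. Deviations of same-numbered samples had r from -0.05 to 0.29 (15 pairs, median 0.04). Not every pair was over 0.1, so the numbers are not taken to pair the samples, although some, such as the late HAS2 samples, split by number. With no detection filter the shares were 3.16% and 0.234%, and centring on control probe sets gave 0.287% for days 5 and 6 against days 7 and 8. Leaving out 1 sample gave 43 to 92 transiently higher and 5 to 29 lower genes, 467 to 1061 for days 2 to 4 against day 0, 3510 to 4294 against days 9 and 10, 1.90% to 4.61% for day 1 against the lines and 0.115% to 0.942% for days 5 and 6 against days 7 and 8. CYP26A1, not called against the late days, ranged from -0.033 (without day 10 replicate 1) to 0.27 (without day 10 replicate 2) when 1 sample was left out, and was -0.0052 without day 9 replicate 1. For single genes, other settings left 740 values on their side of the threshold, with 52 weaker and 4 stronger, and leaving out 1 sample left 523, with 73 weaker, 2 stronger and 2 reversed. The causes were not tested.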
